A study of Mus with 8 samples.

Results

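The genes of mitochondrial and peroxisomal fatty acid oxidation were followed in mouse brown fat, as 31 named genes. They were chosen by their function, with earlier results of these data known. Of the 31 genes, 30 were measured by a probe set annotated with 1 gene, among 30642 genes in all. The exception was Etfb, a subunit of the electron transfer flavoprotein, whose probe set is also annotated with a microRNA. By the organelle in which they are known to work, 17 measured genes were counted as mitochondrial and 10 as peroxisomal. Crat, Eci2 and Acad11 are known from both organelles and were counted in neither class.

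Total RNA of the brown fat pad between the shoulder blades, a depot that burns lipid to make heat, was hybridized to 8 Affymetrix arrays, 1 per mouse. The labels give 4 mice as HILPDA KO and 4 as wild type (WT), all on the C57BL/6 background and all female, and they give no age, treatment, promoter or Cre line. Hilpda encodes a small lipid droplet protein known to inhibit adipose triglyceride lipase, so the comparison asks how transcripts of brown fat differ without it. The values are the log2 expression values that the authors deposited, and a difference of 1 is a doubling.

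Fatty acids released from lipid droplets are the main fuel of heat production in brown fat. In mitochondria, long acyl chains enter through the carnitine shuttle and are shortened by rounds of dehydrogenation, hydration, a second dehydrogenation and thiolysis, with electrons passed on through the electron transfer flavoprotein. Peroxisomes hold a parallel set of enzymes, fed by ABC transporters of their membrane, which shorten very long, branched and unsaturated chains before mitochondria take them over.

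The arrays fell into 2 sets, of which the labels say nothing. The median over named genes was 4.92 to 4.96 in replicates 3 and 4 of each genotype (set 2) and 3.92 to 3.98 in replicates 1 and 2 (set 1), so levels are compared within a set only. Hilpda read 5.60 and 5.51 in KO replicates 3 and 4, against 6.00 and 5.92 in WT replicates 3 and 4. In set 1 it read 4.45 and 4.37 in KO replicates 1 and 2, against 4.37 and 4.28 in WT replicates 1 and 2. The targeted gene was thus lower in both arrays labelled KO of set 2 and not in those of set 1, and KO stands below for the label. The set 2 difference was small, -0.40 (SE 0.099, adjusted p = 0.145 in limma). In both sets and both genotypes Hilpda read not far above the median over named genes. Whether the probe set covers the deleted stretch is not stated in the labels. The Y-linked gene Uty read 9.31 to 10.93, and Xist, the X-inactivation transcript, read 3.49 to 4.10, so that all 8 arrays went against the sex in the labels. The defining markers of brown fat were present: Ucp1 lay within 0.1 of the highest value of every array, and Cidea read 18.76 to 19.37.

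Other tissues were represented unequally. Albumin (Alb), the main liver secretory protein, read 5.23 and 4.99 in KO, against 5.11 and 4.79 in WT, in set 2. The set 1 values were 19.23 and 15.81 in KO replicates 1 and 2, against 14.51 and 10.03 in WT replicates 1 and 2. The mean of 15 skeletal muscle markers was 5.67 and 10.83 in KO, against 11.19 and 9.42 in WT, in set 2, and 6.29 and 9.35 in KO, against 8.31 and 7.73 in WT, in set 1. Albumin was thus high in set 1, most of all in KO replicate 1, and muscle signal was lowest in KO replicate 3 in set 2 and in KO replicate 1 in set 1. Several oxidation genes are also expressed in liver and in muscle. In bulk tissue fewer cells of a type and less RNA per cell cannot be told apart.

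Most of the oxidation genes gave signals near the top of the array. Of the 30 genes, 23 were among the 5% of genes with the highest mean, and between 8 and 11 lay above the 99th percentile on any one array. The signals of different probe sets are not amounts that can be ranked against each other. Signals near the maximum are flagged because saturation could hide a difference there, and lower signals were not tested for it. Acaa2, the mitochondrial thiolase, Acadl, the long-chain acyl-CoA dehydrogenase, and Hadhb, the beta subunit of the trifunctional protein, came within 0.5 of the highest value of an array.

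Acaa2 read 19.07 and 18.84 in KO, against 19.09 and 19.10 in WT, in set 2, and 19.63 and 19.44 in KO, against 19.64 and 19.66 in WT, in set 1. Both KO arrays were lower in each set, by small margins. Acadl read 19.32 and 19.24 in KO, against 19.28 and 19.29 in WT, in set 2, and 18.84 and 18.78 in KO, against 18.81 and 18.78 in WT, in set 1. The genotypes overlapped for Acadl in both sets. For Hadhb the values were 18.90 and 18.84 in KO, against 18.91 and 19.30 in WT, in set 2, and 18.20 and 18.70 in KO, against 18.34 and 18.24 in WT, in set 1. Only WT replicate 4 came near the array maximum for Hadhb. No oxidation gene lay within 0.1 of the highest value on any array. Distance from the maximum does not show that a gene is free of saturation. Cidea, for example, read 18.76 on every array of set 1, where the highest value was 19.93.

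**Figure D1:**
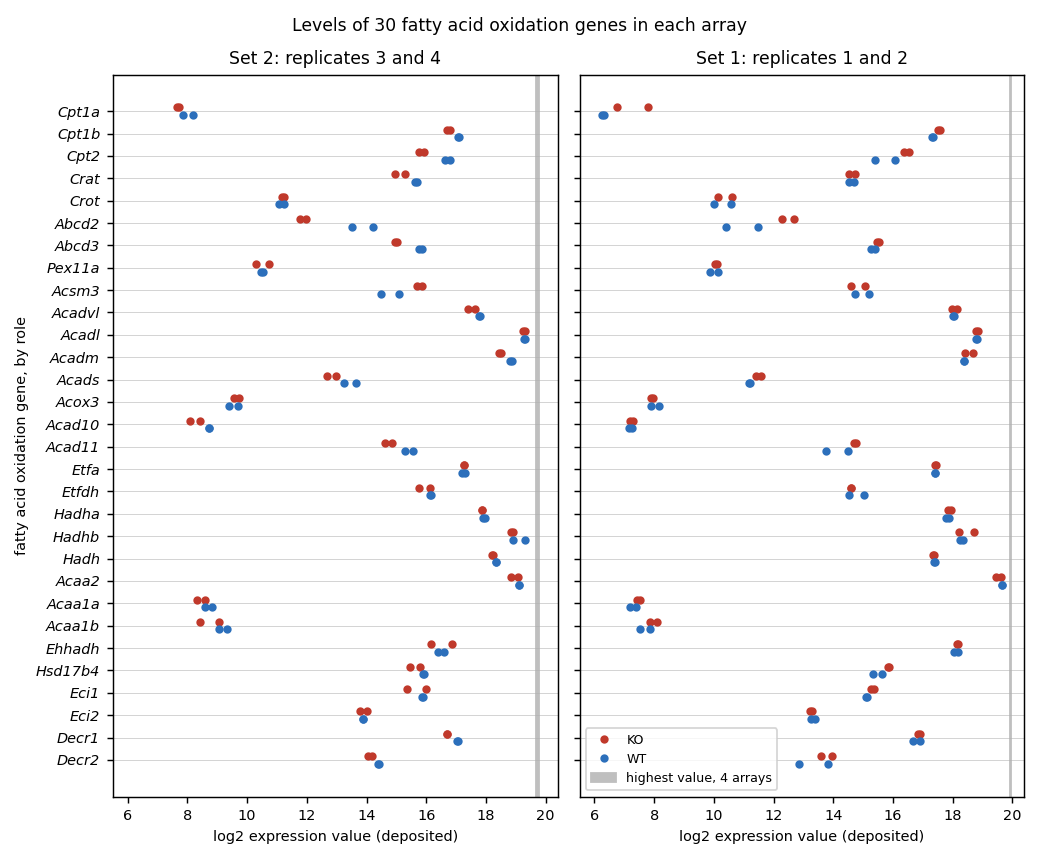
Deposited log2 expression values (x axis) of 30 fatty acid oxidation genes (y axis, ordered by role) in each KO (red) and WT (blue) array of set 2 (left) and set 1 (right). The grey band spans the highest values of the 4 arrays of a set, which ran from 19.68 to 19.77 in set 2 and were 19.93 in set 1; Acaa2, Acadl and Hadhb lie closest to it.

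Over all arrays, with the set as a block, no oxidation gene differed between KO and WT in limma at an adjusted p under 0.05, and no gene of the 30642 did (0% called). The lowest adjusted p among the 30 was 0.984. At an unadjusted p under 0.05 the count was 0 of 30, where 4.82% of all genes passed. The 30 differences had a median of -0.04, against 0.0075 for all genes, and 20 of 30 were lower in KO, against 47.4% of all genes. That count was 12 without KO replicate 4 and 13 without WT replicate 4, and the median was then 0.02 and 0.03.

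The 8 genes with the smallest unadjusted p did not lead to a call. For Crat, which moves acetyl groups onto carnitine, the difference was -0.25 (SE 0.14). Those of the others were -0.21 for Acad10, an acyl-CoA dehydrogenase family member, -0.32 for Abcd3, a peroxisomal fatty acid transporter, and -0.13 for Acaa2. Acsm3, a mitochondrial medium-chain acyl-CoA synthetase, stood on the other side at 0.43 (SE 0.27). Etfdh, which passes electrons to the respiratory chain, stood at -0.19, and Hadh and Decr1, a hydroxyacyl-CoA dehydrogenase and a dienoyl-CoA reductase, at -0.08 and -0.13.

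Within the sets the genotypes stood in opposite order. In set 2, 23 of 30 genes were lower in KO, against 46.4% of all genes, with a median difference of -0.26 where all genes had 0.017. Both KO arrays lay below both WT arrays for 20 of 30, against 19.1% of all genes, and above both for 1, against 23.9%. In set 1, 24 of 30 were higher in KO, against 51.0% of all genes, with a median of 0.08 where all genes had 0.0038. Both KO arrays lay above both WT arrays for 13 of 30, against 18.9% of all genes, and below both for 1, against 19.4%.

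The brightest genes gave these values for comparison. Among the 5% of genes with the highest mean, 34.7% were lower in KO in set 2, and 19.0% had both KO arrays below both WT arrays. In set 1, 30.2% of those genes were higher in KO, and 9.85% had both KO arrays above both WT arrays. Their median differences were 0.12 in set 2 and -0.09 in set 1.

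No oxidation gene passed within a set after adjustment over all genes, where 1 gene (0.00326%) passed in set 2 and 0 (0%) in set 1. The lowest adjusted p in limma was 0.0798 (Abcd3) in set 2 and 0.384 (Abcd2) in set 1. At an unadjusted p under 0.05, 11 of 30 were lower in KO in set 2, against 6.13% of all genes, and 5 of 30 were higher in set 1, against 2.66%. With 2 arrays per genotype in a set, these fits borrow their spread from all 8 arrays.

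**Figure D2:**
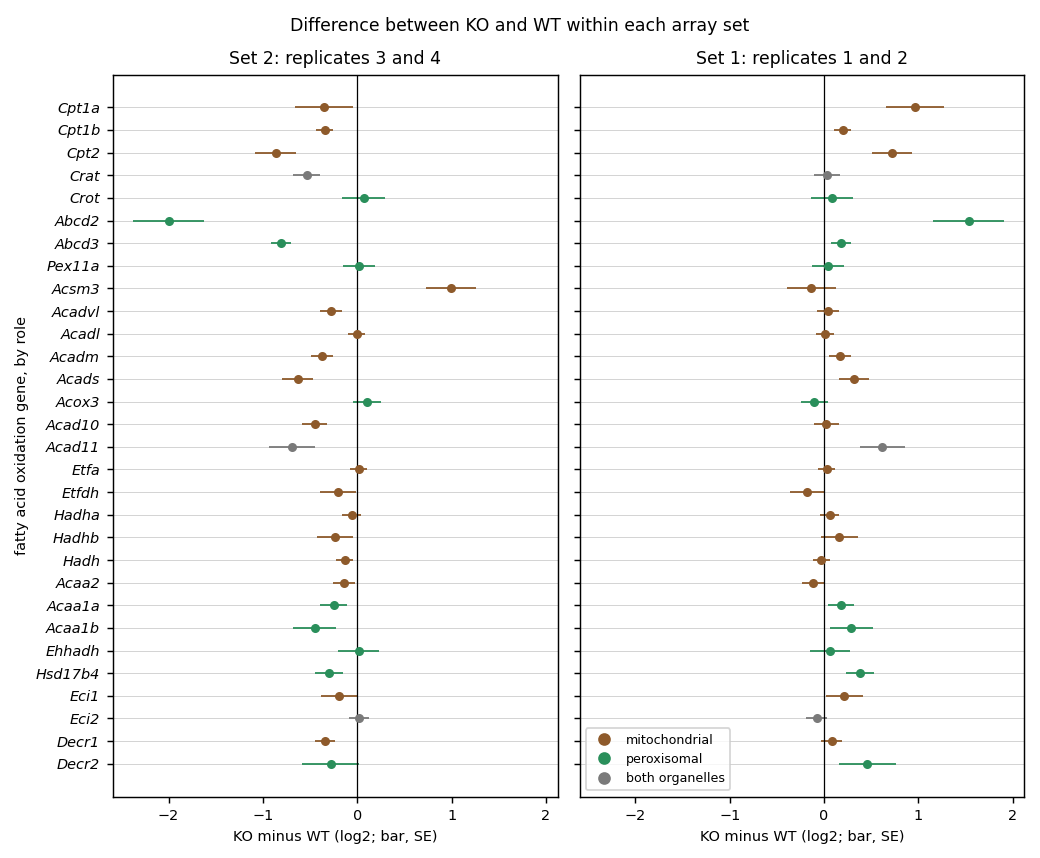
KO minus WT difference (x axis, log2; bars are the SE from limma) of each fatty acid oxidation gene (y axis, by role) within set 2 (left) and set 1 (right), with mitochondrial genes in brown, peroxisomal genes in green and genes of both organelles in grey. In set 2, 23 of 30 points lie below 0, and in set 1, 24 of 30 lie above it; Abcd2 lies farthest from 0 in both, at -2.0 and 1.53.

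The peroxisomal fatty acid transporter Abcd2 had a larger gap between the sets than any other of the 30 genes. Abcd2, a transporter of very long-chain and unsaturated acyl-CoAs, read 11.78 and 11.97 in KO, against 14.22 and 13.52 in WT, in set 2. Set 1 gave 12.68 and 12.29 in KO, against 11.49 and 10.41 in WT. The KO arrays lay below WT in set 2 and above WT in set 1, with no overlap in either. The differences were -2.0 (SE 0.38, adjusted p = 0.106), or 4.00-fold lower, and 1.53 (SE 0.38, adjusted p = 0.384), or 2.89-fold higher. Without WT replicate 2 the set 1 difference was 0.99.

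Abcd3, also called PMP70, an abundant transporter of the peroxisomal membrane, read 15.03 and 14.95 in KO, against 15.86 and 15.74 in WT, in set 2. It read 15.45 and 15.54 in KO, against 15.38 and 15.26 in WT, in set 1. Again the genotypes did not overlap in either set and their order turned round. The differences were -0.81 (SE 0.10) in set 2 and 0.18 (SE 0.10) in set 1, where it was 0.12 without WT replicate 2. Pex11a, a peroxin of peroxisome division, differed little. It read 10.74 and 10.28 in KO, against 10.47 and 10.52 in WT, in set 2, and the genotypes overlapped in both sets.

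The genes counted as carnitine shuttle were Cpt1a, Cpt1b, Cpt2, Crat and Crot. All 5 were higher in KO in set 1, against 51.0% of all genes. In set 2, 4 of 5 were lower in KO, against 46.4%. Both KO arrays lay above both WT arrays for 3 of 5 in set 1, against 18.9% of all genes. They lay below both for 4 of 5 in set 2, against 19.1%. Cpt2, the inner membrane enzyme that returns acyl chains to coenzyme A, read 15.75 and 15.93 in KO, against 16.79 and 16.63 in WT, in set 2. In set 1 it read 16.55 and 16.38 in KO, against 16.07 and 15.41 in WT. The genotypes were parted in both sets, with KO low in set 2 and high in set 1. The differences were -0.87 (SE 0.21, adjusted p = 0.145) and 0.72 (SE 0.21, adjusted p = 0.453). The set 1 difference was 0.39 without WT replicate 2.

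Cpt1b, the muscle-type carnitine palmitoyltransferase that gates entry into mitochondria in brown fat, read 16.79 and 16.68 in KO, against 17.09 and 17.07 in WT, in set 2. The set 1 values were 17.51 and 17.56 in KO, against 17.35 and 17.32 in WT. The margins were small, -0.35 and 0.20 (SE 0.09 each), and the genotypes did not overlap. Cpt1b is also expressed in skeletal muscle, whose marker mean in set 2 was 5.67 and 10.83 in KO, against 11.19 and 9.42 in WT, and the part of muscle RNA in the difference was not tested.

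Cpt1a, the liver-type isoform, was among the 7 oxidation genes outside the brightest 5%. It read 7.64 and 7.72 in KO, against 8.20 and 7.86 in WT, in set 2, and 7.78 and 6.74 in KO, against 6.33 and 6.26 in WT, in set 1. In set 1 the 4 arrays stood in the same order for Cpt1a as for albumin. Abcd2, Cpt2, Acad11 and Hsd17b4 also had that order, while others such as Abcd3, Acads and Cpt1b did not. The part of liver RNA in the set 1 differences of these genes was not tested. For Cpt1a the set 1 difference of 0.97 (SE 0.31) was 0.45 without KO replicate 1. In set 2, where albumin was at 4.79 to 5.23, the Cpt1a difference was -0.35 (SE 0.31), and -0.18 without WT replicate 3.

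Crat and Crot, counted with the shuttle above, split. Crat read 15.29 and 14.96 in KO, against 15.69 and 15.63 in WT, in set 2, a difference of -0.54 (SE 0.14). Set 1 gave 14.54 and 14.74 in KO, against 14.53 and 14.69 in WT, and the genotypes overlapped. Crot, the carnitine octanoyltransferase of peroxisomes, read 11.25 and 11.18 in KO, against 11.06 and 11.24 in WT, in set 2, and overlapped in both sets.

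The acyl-CoA dehydrogenases, which start each round of oxidation, had 5 of 7 genes with both KO arrays below both WT arrays in set 2, against 19.1% of all genes. This count includes Acox3, the peroxisomal pristanoyl-CoA oxidase, which was not among the 5. Acads, the short-chain enzyme, read 12.97 and 12.66 in KO, against 13.63 and 13.26 in WT, in set 2. In set 1 it read 11.42 and 11.58 in KO, against 11.16 and 11.21 in WT. Its order turned round between the sets without overlap in either, with differences of -0.63 and 0.32 (SE 0.16 each).

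Acad11, which acts on long and very long chains, read 14.62 and 14.84 in KO, against 15.57 and 15.28 in WT, in set 2. The set 1 values were 14.76 and 14.70 in KO, against 14.49 and 13.74 in WT. As with Abcd2, KO lay below WT in set 2 and above it in set 1, with no overlap in either. Acadm, the medium-chain enzyme, read 18.50 and 18.42 in KO, against 18.86 and 18.81 in WT, in set 2, and 18.40 and 18.69 in KO, against 18.37 and 18.38 in WT, in set 1. Its KO arrays were low in set 2 and high in set 1, where KO replicate 1 exceeded WT replicate 2 only slightly. The differences were -0.37 and 0.17 (SE 0.12 each), and that of set 1 was 0.03 without KO replicate 2.

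Acad10 read 8.42 and 8.10 in KO, against 8.71 and 8.72 in WT, in set 2, a difference of -0.45 (SE 0.13), and -0.29 without KO replicate 4. Set 1 gave 7.18 and 7.29 in KO, against 7.15 and 7.27 in WT, with overlap. Acadvl, the very long-chain enzyme of the inner membrane, read 17.62 and 17.39 in KO, against 17.77 and 17.80 in WT, in set 2. In set 1 it overlapped, at 17.99 and 18.13 in KO, against 18.01 and 18.03 in WT. Acadl, near the array maximum, showed neither pattern, nor did Acox3, which read 9.56 and 9.74 in KO, against 9.40 and 9.69 in WT, in set 2.

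**Figure D3:**
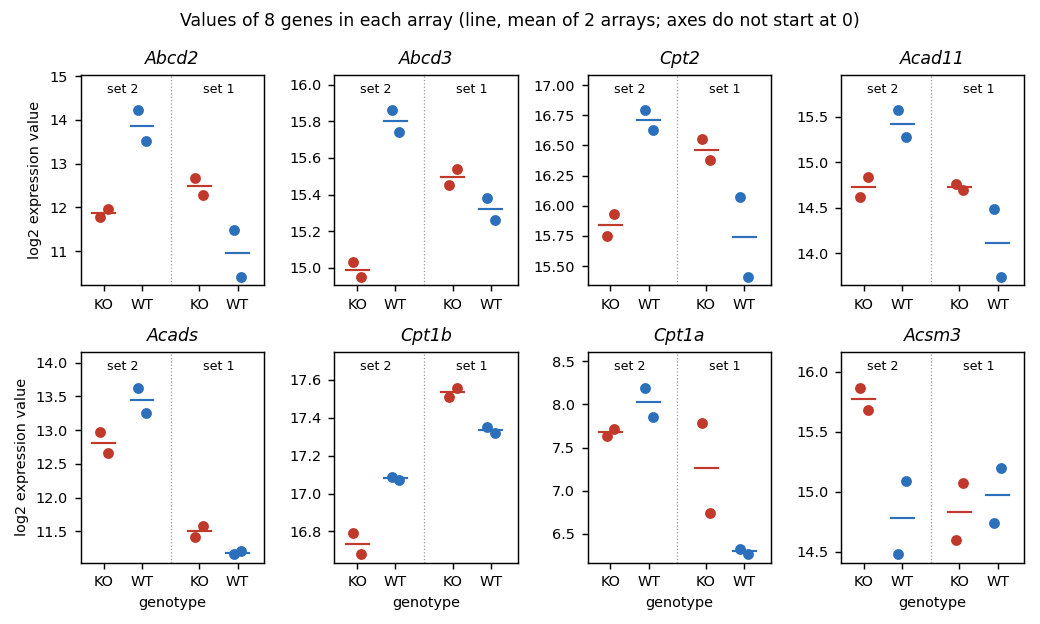
Deposited log2 expression values (y axes, which do not start at 0) of Abcd2, Abcd3, Cpt2, Acad11, Acads, Cpt1b, Cpt1a and Acsm3 in KO (red) and WT (blue) arrays of set 2 (left of each panel) and set 1 (right). Points are single arrays and lines are means of 2; the order of KO and WT turns round between the sets in the first 7 panels, while in Acsm3 KO is the higher in set 2.

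The electron transfer genes differed little in value. Etfa, the alpha subunit of the electron transfer flavoprotein, read 17.26 and 17.26 in KO, against 17.20 and 17.30 in WT, in set 2, and 17.45 and 17.42 in KO, against 17.41 and 17.41 in WT, in set 1. Etfdh read 16.13 and 15.76 in KO, against 16.13 and 16.17 in WT, in set 2, and 14.59 and 14.60 in KO, against 15.02 and 14.53 in WT, in set 1. For Etfdh the arrays of the genotypes overlapped in set 1, and in set 2 KO replicate 4 alone stood apart.

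Of the 8 hydratases, hydroxyacyl-CoA dehydrogenases and thiolases, 7 had both KO arrays below both WT arrays in set 2, against 19.1% of all genes, by margins that were often small. Hadha, the alpha subunit of the trifunctional protein, read 17.88 and 17.85 in KO, against 17.89 and 17.96 in WT, in set 2, and 17.83 and 17.93 in KO, against 17.88 and 17.76 in WT, in set 1. Hadh read 18.22 and 18.19 in KO, against 18.34 and 18.34 in WT, in set 2, and 17.33 and 17.37 in KO, against 17.36 and 17.40 in WT, in set 1. Both genes overlapped between the genotypes in set 1.

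The bifunctional enzymes of peroxisomes differed from each other. Hsd17b4, the D-bifunctional protein, read 15.45 and 15.78 in KO, against 15.90 and 15.93 in WT, in set 2, and 15.87 and 15.83 in KO, against 15.63 and 15.32 in WT, in set 1. Its differences were -0.30 and 0.38 (SE 0.15 each), without overlap in either set. The set 2 difference was -0.13 without KO replicate 3, and that of set 1 was 0.23 without WT replicate 2. Ehhadh, the L-bifunctional protein, read 16.85 and 16.17 in KO, against 16.39 and 16.60 in WT, in set 2, and 18.14 and 18.18 in KO, against 18.16 and 18.03 in WT, in set 1. Its genotypes overlapped in both sets.

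Acaa1a and Acaa1b are closely similar peroxisomal thiolases whose probes could read both transcripts, which was not tested, so their values may not be separate. Acaa1b read 9.05 and 8.43 in KO, against 9.06 and 9.32 in WT, in set 2, and 8.10 and 7.87 in KO, against 7.53 and 7.86 in WT, in set 1. Acaa1a read 8.58 and 8.32 in KO, against 8.58 and 8.82 in WT, in set 2. In set 1 Acaa1a read 7.51 and 7.44 in KO, against 7.19 and 7.40 in WT. Both were lower in KO in set 2 and higher in set 1, in each case with 1 KO array close to a WT array.

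The enzymes that prepare unsaturated chains were mixed. Decr1, the mitochondrial dienoyl-CoA reductase, read 16.71 and 16.70 in KO, against 17.07 and 17.02 in WT, in set 2, and 16.91 and 16.83 in KO, against 16.90 and 16.67 in WT, in set 1. Its KO arrays were low in set 2 only. Decr2, the peroxisomal counterpart, read 14.17 and 14.05 in KO, against 14.37 and 14.42 in WT, in set 2, and 13.97 and 13.59 in KO, against 13.81 and 12.84 in WT, in set 1. The set 1 difference of 0.46 (SE 0.30) rested on WT replicate 2, without which it was -0.03. Eci1 and Eci2, enoyl-CoA isomerases, overlapped in set 2, at 16.00 and 15.36 in KO, against 15.86 and 15.89 in WT, for Eci1, and at 14.00 and 13.79 in KO, against 13.87 and 13.89 in WT, for Eci2.

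Acsm3 ran against most of the other genes in set 2. It read 15.87 and 15.68 in KO, against 14.48 and 15.09 in WT, in set 2, and 14.60 and 15.07 in KO, against 14.74 and 15.20 in WT, in set 1. It was the 1 gene of the 30 with both KO arrays above both WT arrays in set 2. The difference there was 0.99 (SE 0.26, adjusted p = 0.16), and in set 1 the genotypes overlapped.

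The opposite order in the sets was tested as the difference between the KO minus WT values of set 2 and set 1. Across all genes 153 (0.499%) passed in limma, a count of 0 to 10 with any 1 array left out. No oxidation gene passed. The nearest were Abcd3, at -0.99 (SE 0.15, adjusted p = 0.0517), Abcd2, at -3.53 (SE 0.53, adjusted p = 0.054), and Cpt2, at -1.59 (SE 0.30, adjusted p = 0.0846). With the filter on low values, which kept genes with a mean above the median gene, Abcd2 (adjusted p = 0.0342) and Abcd3 (adjusted p = 0.0405) passed.

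The difference between sets was below 0 for 27 of 30 oxidation genes, against 48.8% of all genes and 30.3% of the 5% of genes with the highest mean. At an unadjusted p under 0.05, 12 of 30 were below 0, against 5.42% of all genes. Among them were Acads at -0.95, Cpt1b at -0.54, Acad11 at -1.31, Acadm at -0.54 and Hsd17b4 at -0.68. For 11 of 30 genes the KO arrays lay above both WT arrays in set 1 and below both in set 2, against 5.28% of all genes. What else differed between the sets is not given in the labels and cannot be told apart from the set.

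The median differences of mitochondrial and peroxisomal genes had the same sign in each set. In set 2 the 17 mitochondrial genes had a median difference of -0.24, with 15 lower in KO, against 46.4% of all genes, and 12 parted between the genotypes in that direction, against 19.1%. The 10 peroxisomal genes had a median of -0.27, with 6 lower, all 6 of them parted, and 4 higher. In set 1 the medians were 0.06 for mitochondrial genes, of which 13 were higher in KO, and 0.18 for peroxisomal genes, of which 9 were higher, against 51.0% of all genes. In the fit over both sets they were -0.08 and 0.01. The mitochondrial median minus the peroxisomal was 0.03 in set 2 and -0.12 in set 1, where the same gap varied by 0.081 (SD) between arrays of one genotype and set. Without WT replicate 2 the set 1 gap was 0.01, and a difference between the classes was not tested.

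The set 2 differences of the peroxisomal genes ran from -2.0 (Abcd2) to 0.10 (Acox3), or from -0.81 (Abcd3) without Abcd2, and those of the mitochondrial genes from -0.87 (Cpt2) to 0.99 (Acsm3), with the others between -0.63 and 0.01. In set 2 the mean of the mitochondrial genes was 16.06 and 15.92 in KO, against 16.19 and 16.21 in WT, and that of the peroxisomal genes was 12.24 and 12.09 in KO, against 12.53 and 12.58 in WT. In set 1 they were 15.73 and 15.76 in KO, against 15.63 and 15.56 in WT, and 12.03 and 11.89 in KO, against 11.78 and 11.51 in WT. Both class means were parted between the genotypes in each set. The offset of the mitochondrial over the peroxisomal mean was 3.82 and 3.83 in KO, against 3.66 and 3.63 in WT, in set 2. Without Abcd2, a choice made after its values were seen, it was 3.77 and 3.82 in KO, against 3.85 and 3.74 in WT, and overlapped.

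**Figure D4:**
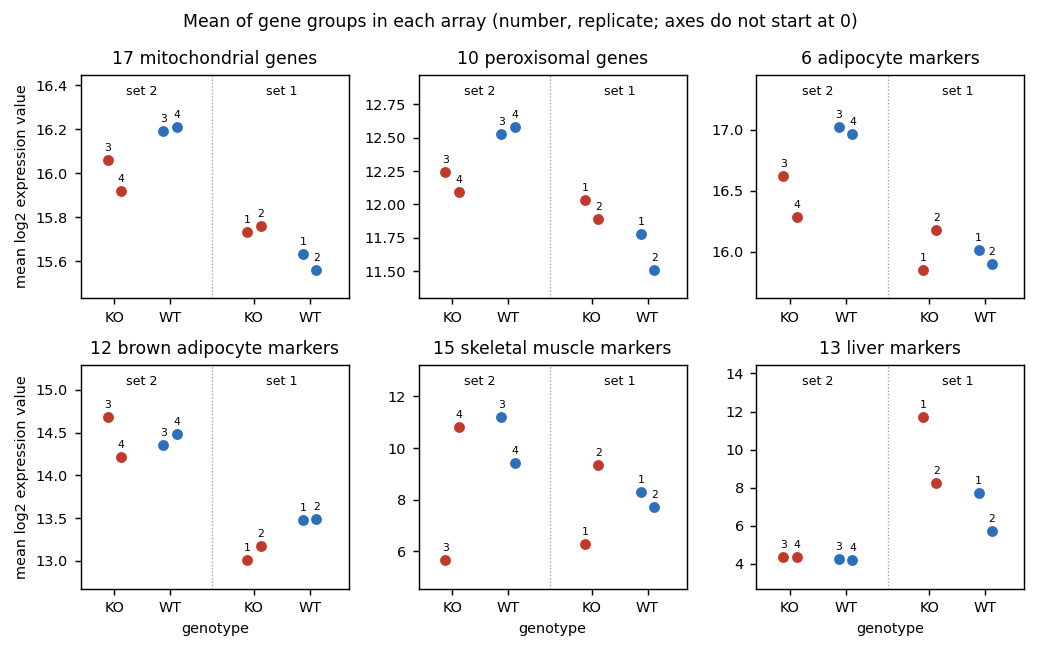
Mean log2 expression values (y axes, which do not start at 0) of 17 mitochondrial and 10 peroxisomal oxidation genes and of markers of adipocytes, brown adipocytes, skeletal muscle and liver in each KO (red) and WT (blue) array, labelled by replicate number, with set 2 left of the dotted line and set 1 right of it. Both classes of oxidation genes and the 6 adipocyte markers lie lower in KO in set 2, where KO replicate 3 has a muscle mean of 5.67; liver markers are high in set 1 only.

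Markers of other cell types gave the following values beside these differences. The 6 adipocyte markers, Adipoq, Plin1, Fabp4, Lipe, Cidec and Pparg, had a mean of 16.62 and 16.28 in KO, against 17.02 and 16.96 in WT, in set 2, and all 6 were lower in KO there. In set 1 the mean was 15.85 and 16.18 in KO, against 16.01 and 15.90 in WT. The adipocyte markers thus went with the oxidation genes in set 2 and overlapped in set 1. Their set 2 differences were uneven, from -1.9 to -0.0075 with a median of -0.23. Both KO arrays lay below both WT arrays there for 4 of 6, against 19.1% of all genes. The 12 brown adipocyte markers overlapped in set 2, at 14.68 and 14.22 in KO, against 14.36 and 14.48 in WT, and in set 1 they were 13.01 and 13.17 in KO, against 13.48 and 13.49 in WT. In set 1, 6 of the 12 were lower and 6 higher in KO, with a median difference of 0.01. The mean there was carried by Dio2, the deiodinase that activates thyroid hormone, at -4.63.

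All 15 muscle markers were lower in KO in set 2, and their median difference was -2.02, but none was parted between the genotypes. All 13 liver markers were higher in KO in set 1, with a median difference of 3.23, against 0.06 in set 2. Macrophage markers had 7 of 7 members higher in KO in set 2, with a median of 0.27. The part of these cell types in the differences was not tested.

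Other genes of the pathway, 28 in mitochondria and 34 in peroxisomes, showed less of the pattern, and those of peroxisomes did not show it in set 1. In set 2, 16 of the 28 and 24 of the 34 were lower in KO, against 46.4% of all genes. The medians were -0.08 and -0.12. In set 1, 15 of the 28 and 12 of the 34 were higher, against 51.0% of all genes, with medians of 0.0056 and -0.05. Of the 34 peroxisomal genes, 22 were lower in KO in set 1, and 14 were lower in both sets. None of the 28 or the 34 passed after adjustment in any of the 4 comparisons. Slc25a20, the carnitine-acylcarnitine carrier of the inner membrane, resembled Cpt2 in set 2, while in set 1 its genotypes overlapped. It read 17.79 and 17.69 in KO, against 18.21 and 18.24 in WT, in set 2, and 18.19 and 18.38 in KO, against 18.22 and 18.04 in WT, in set 1, differences of -0.49 and 0.15.

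With the set as a block, 4 of the 28 other mitochondrial genes were lower in KO at an unadjusted p under 0.05, where 2.33% of all genes were, and 0 of the 34 peroxisomal genes. The 4 were Echs1, the enoyl-CoA hydratase of short chains (-0.21), Pcca, a subunit of propionyl-CoA carboxylase (-0.33), Acadsb, the branched short-chain dehydrogenase (-0.33), and Acad8, the isobutyryl-CoA dehydrogenase (-0.29). Echs1 read 15.23 and 15.09 in KO, against 15.37 and 15.45 in WT, in set 2, and 14.58 and 14.68 in KO, against 14.78 and 14.84 in WT, in set 1. It was lower in both KO arrays of each set.

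In the test between the sets 10 of the 28 and 8 of the 34 passed at an unadjusted p under 0.05, where 14.8% of all genes did. On the side of the oxidation genes stood Slc25a20, Acad12, Mlycd, Pccb, Dbi, Abcd4, Slc25a17, Hacl1 and Acot12, at -0.64, -0.63, -1.27, -0.56, -0.59, -0.39, -0.68, -0.63 and -1.40. On the other side stood Ivd, Hibch, Mcee, Mmut and Etfbkmt of the mitochondrial list, at 0.78, 0.73, 0.72, 0.59 and 2.15, and Pecr, Pxmp2, Pxmp4 and Far1 of the peroxisomal list, at 0.71, 0.86, 0.49 and 0.46. Ivd, Hibch, Mcee and Mmut are enzymes of the breakdown of branched-chain amino acids and propionyl-CoA, and Mlycd is malonyl-CoA decarboxylase.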

How the data were processed

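Per the labels, the deposited log2 values are RMA expression of core exons from the Expression Console software. Its version and the genome build are not stated there, and the base of the logarithm was inferred from the maximum. Gene names came from the platform annotation, updated through RefSeq (GRCm38.p6): 31112 probe sets had 1 gene, 1638 several and 33206 none, controls left aside. A gene was represented by its probe set with the highest mean, and every measured oxidation gene had 1.

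The main fit was limma (version 3.58.1 in R 4.3.3), lmFit and eBayes, over all 30642 genes with the array set as a block. A fit by genotype and set gave the differences within sets and between them. P-values were adjusted by the Benjamini-Hochberg method over all genes, with a threshold of 0.05. On simulated arrays the main fit recovered 80 of 100 genes changed by 1 and 98 of 100 changed by 2. Without the block the counts were 0 and 1. The main fit also called 9 unchanged genes. No difference between the sets in KO minus WT was built into the simulated arrays. In the real arrays such a difference widens the spread of the main fit, where Abcd2 had an SE of 0.69, against 0.38 within a set. The recovery therefore does not carry over to genes whose order turned round between the sets. Precision is limited by how few arrays there are, and p-values measure the spread between these arrays.

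All 30 genes are named, with every array's values for those with the smallest unadjusted p over all arrays and between sets (8 each), the largest difference in each set (8 each) or a value within 0.5 of an array maximum, and for others by role. Other pathway genes were named at an unadjusted p under 0.05. The genes and lists were chosen with earlier results of these data known, and the comparison with the 5% of genes of highest mean was added after the values were seen.

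Between KO and WT arrays of one number, deviations from the genotype mean had correlations of 0.701, 0.473, 0.478 and 0.61. With the set difference removed these were 0.107, 0.107, -0.0888 and -0.0888, so a pairing by number within sets is not shown. Alternatives were no block, the replicate number as a block, median centring, quantile normalization, a filter on low values, an intensity trend, the mean of probe sets, and leaving out each array.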

Additional observations from a re-analysis of the deposited data

Results flagged for a closer look

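In 2 of the 64 groups of 4 arrays examined, a single array stood apart from the rest of its genotype, where chance gives about 5% of groups. KO replicate 2 read 6.74 for Cpt1a, the liver-type carnitine palmitoyltransferase, while the other KO arrays read 7.64 to 7.78. KO replicate 3 read 16.00 for Eci1, the mitochondrial enoyl-CoA isomerase, while the other KO arrays read 15.26 to 15.37. Each group of 4 holds 2 arrays of each set, and levels differ between the sets, so the flag does not settle which array departs. In set 1 WT read 6.33 and 6.26 for Cpt1a, nearer to KO replicate 2 than to KO replicate 1, at 7.78. In set 2 WT read 15.86 and 15.89 for Eci1, nearer to KO replicate 3 than to KO replicate 4, at 15.36.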

How the results depend on the processing

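Of the 50 differences of single genes followed through the alternatives, all 50 kept their direction and their side of the threshold under the intensity trend and under the replicate block, a fit by replicate number that called 0 of them (lowest adjusted p = 0.0803). The fit without the block could be set beside 8 of them, and these kept theirs too. With the filter on low values Abcd2 and Abcd3 passed in the test between the sets. Within set 1 the sign turned for Acad10 under median centring (-0.0048), for Acsm3 under quantile normalization (0.015), and with 1 array left out for Decr2 (-0.028 to 0.95), Crat (-0.064 to 0.13), Acad10 (-0.032 to 0.081) and Acsm3 (-0.37 to 0.10). The count of all genes called over all arrays was 0 to 1 with 1 array left out. In set 1 it was 0 to 14, and in set 2 it was 0 to 10, with 14 under the filter, 0 under quantile normalization and 0 with the replicate block. Between the sets it was 4 under the intensity trend, 376 under the filter, 82 under median centring, 3 with the replicate block and 0 to 10 with 1 array left out. Quantile normalization moved the median of the oxidation genes to 0.18 in set 1, -0.32 in set 2 and -0.53 between the sets. With 1 array left out the median was -0.096 to 0.029 over all arrays, 0.059 to 0.15 in set 1, -0.35 to -0.15 in set 2 and -0.47 to -0.31 between the sets, the gap between the classes in set 1 was -0.25 to 0.011, and 12 to 24 genes were lower over all arrays. Such fits leave 1 array in an arm, which is assumed to vary like the others. No oxidation gene lay within 0.1 of an array maximum (0), and 4 lay within 1. Saturation limits what can be seen for the brightest genes.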
